A study of Bos taurus and Bos indicus with 6 samples.

Results

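The nuclear-encoded genes of mitochondrial complexes II to V were measured in circulating white blood cells of Holstein and Brahman cattle under heavy infestation with the cattle tick Rhipicephalus microplus. Members were the probe sets with exactly 1 gene symbol in the platform annotation that is SDHA, SDHB, SDHC, SDHD, CYC1 or CYCS, or that starts with UQCR, with COX and a digit, or with ATP5. The rule found 62 of 24016 probe sets, for 49 of 9155 named genes, and each gene is given by its probe set with the highest mean over all 6 arrays. CYCS, the electron carrier cytochrome c, carried no probe set of its own in that annotation and was not analysed here, and neither were COX6B1, COX7B and COX17. The mitochondrially encoded subunits COX1, COX2 and COX3 were likewise not analysed here.

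The animals were 3 Holstein (annotated Bos taurus) and 3 Brahman (annotated Bos indicus) females of 6 months, and all 6 were carrying ticks, so each breed difference includes whatever differs without ticks. Each animal gave 1 array from unsorted white cells taken after lysis of red cells. Values are log2 expression, in which a difference of 1 is a doubling, and differences are Brahman minus Holstein, negative where Brahman is lower. In unsorted blood, fewer cells of a type and less RNA per cell cannot be told apart.

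Complex II passes electrons from succinate to ubiquinone and is also an enzyme of the citric acid cycle. Complex III hands electrons from ubiquinol to cytochrome c, complex IV hands them from cytochrome c to oxygen, and complexes III and IV move protons across the inner membrane. Complex V, the ATP synthase, lets protons back through a rotating ring of c subunits and makes ATP in its F1 head. Among circulating leukocytes, neutrophils are known to rely mostly on glycolysis, whereas lymphocytes and monocytes draw more on respiration.

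Values of the respiratory subunits were lower in Brahman in every complex. Of the 49 members, 45 had a lower mean in Brahman, against 44.5% of all probe sets, 51.7% of the named genes and 54.4% of the 1505 probe sets with a mean level of at least 10, where 34 of the members lie. The median difference over the members was -0.29, or 1.22-fold higher in Holstein, beside a median of 0.02 over all probe sets and -0.02 over those with a level of at least 10. The differences were small, from -0.54 for ATP5MF (1.45-fold higher in Holstein) to 0.08 for COX10. In limma, 0 of 49 members passed an adjusted p of 0.05, where 0.137% of all probe sets did, and the lowest adjusted p of a member was 0.151.

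At an unadjusted p under 0.05, 26 members were lower and 0 higher in Brahman, and the corresponding shares of all probe sets were 6.47% lower and 7.12% higher. The 26 lower members are 53.1% of the 49, beside 9.62% of the named genes and 10.9% of the probe sets with a level of at least 10. The count was 17 without Brahman 2 or without Brahman 3, and 12 when the spike-in signal of each array, described further on, was a covariate. For 30 members every Brahman value was below every Holstein value, and for 0 members the reverse held. The same separation was seen in 8.37% of all probe sets (11.7% for the reverse), in 12.2% of the named genes and in 14.2% of the probe sets with a level of at least 10. The gap between the lowest Holstein and the highest Brahman value in those 30 members ran from 0.01 for COX19 to 0.33 for ATP5F1B.

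**Figure D1:**
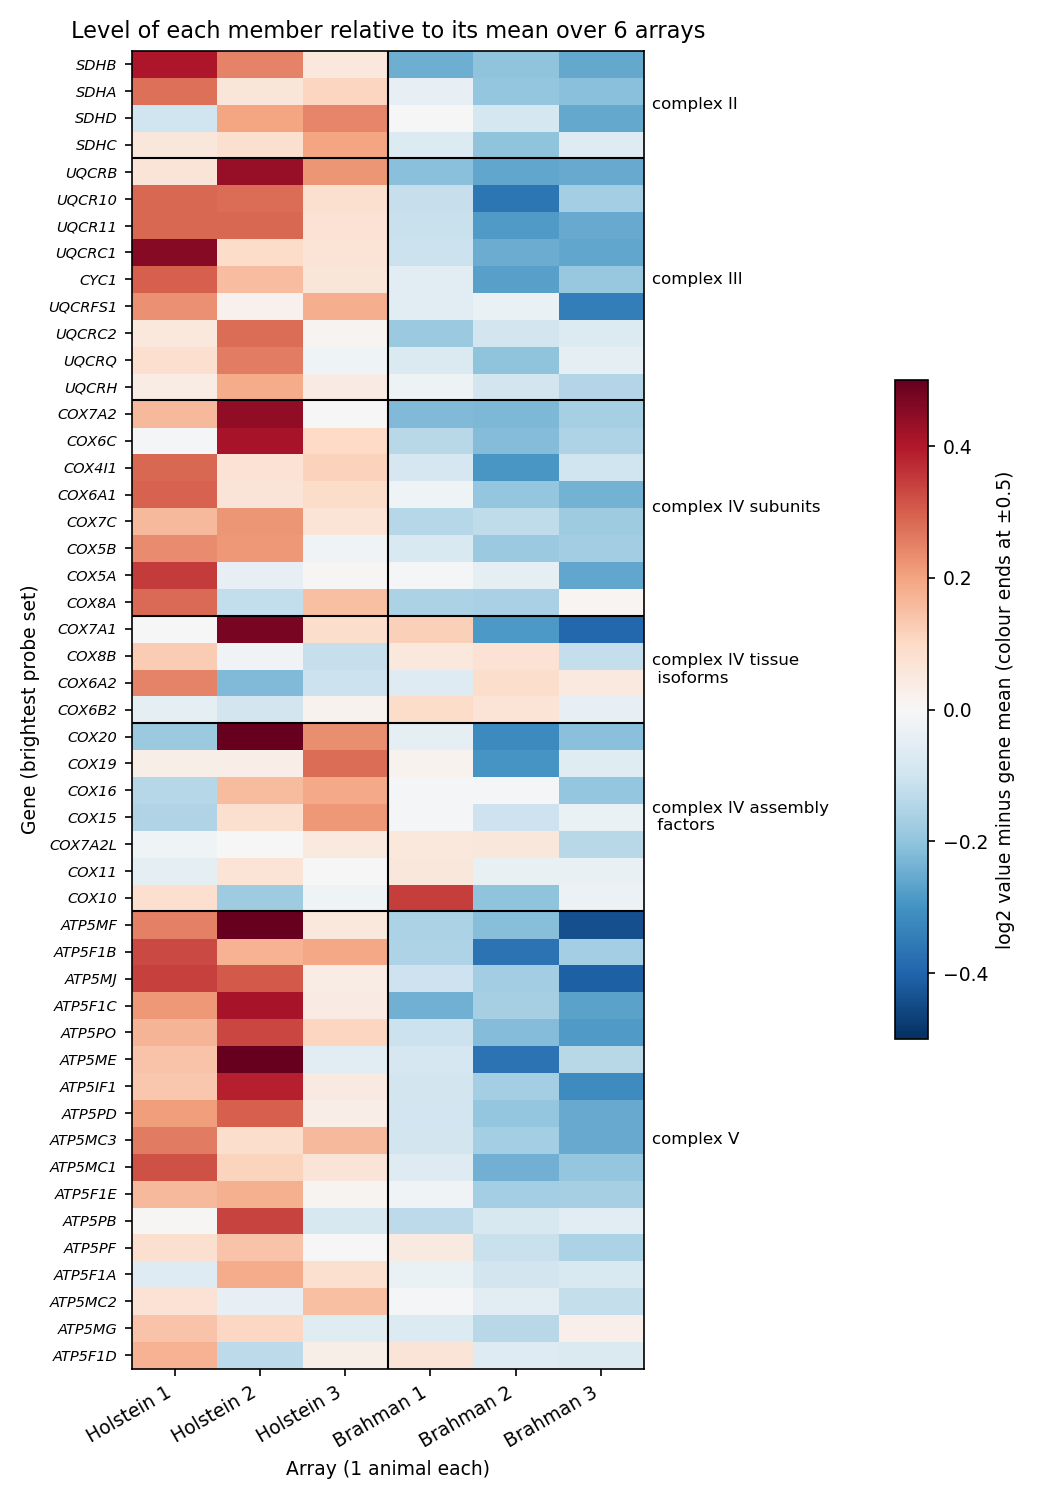
Heat map of the 49 members (rows, grouped by complex) on the 6 arrays (columns), coloured by the log2 value minus the gene's mean over the 6 arrays, with colours ending at ±0.5. A Holstein array is highest in 46 members and a Brahman array is lowest in 44.

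The 38 subunits of complexes II, III, IV and V (ATP5IF1 of complex V included) all had lower means in Brahman, with a median of -0.31, and they hold all 26 members that reached an unadjusted p under 0.05. The other 11 members are assembly factors and tissue isoforms of complex IV, of which 7 had lower means and 0 reached that p. Of the named genes, 51.7% had lower means and 9.62% were lower at that p. With so few members, these counts are near those shares, and whether the 11 differ from the subunits was not tested. The 95% confidence intervals were widest for COX20 (-0.81 to 0.04) and narrowest for COX11 (-0.21 to 0.19).

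**Figure D2:**
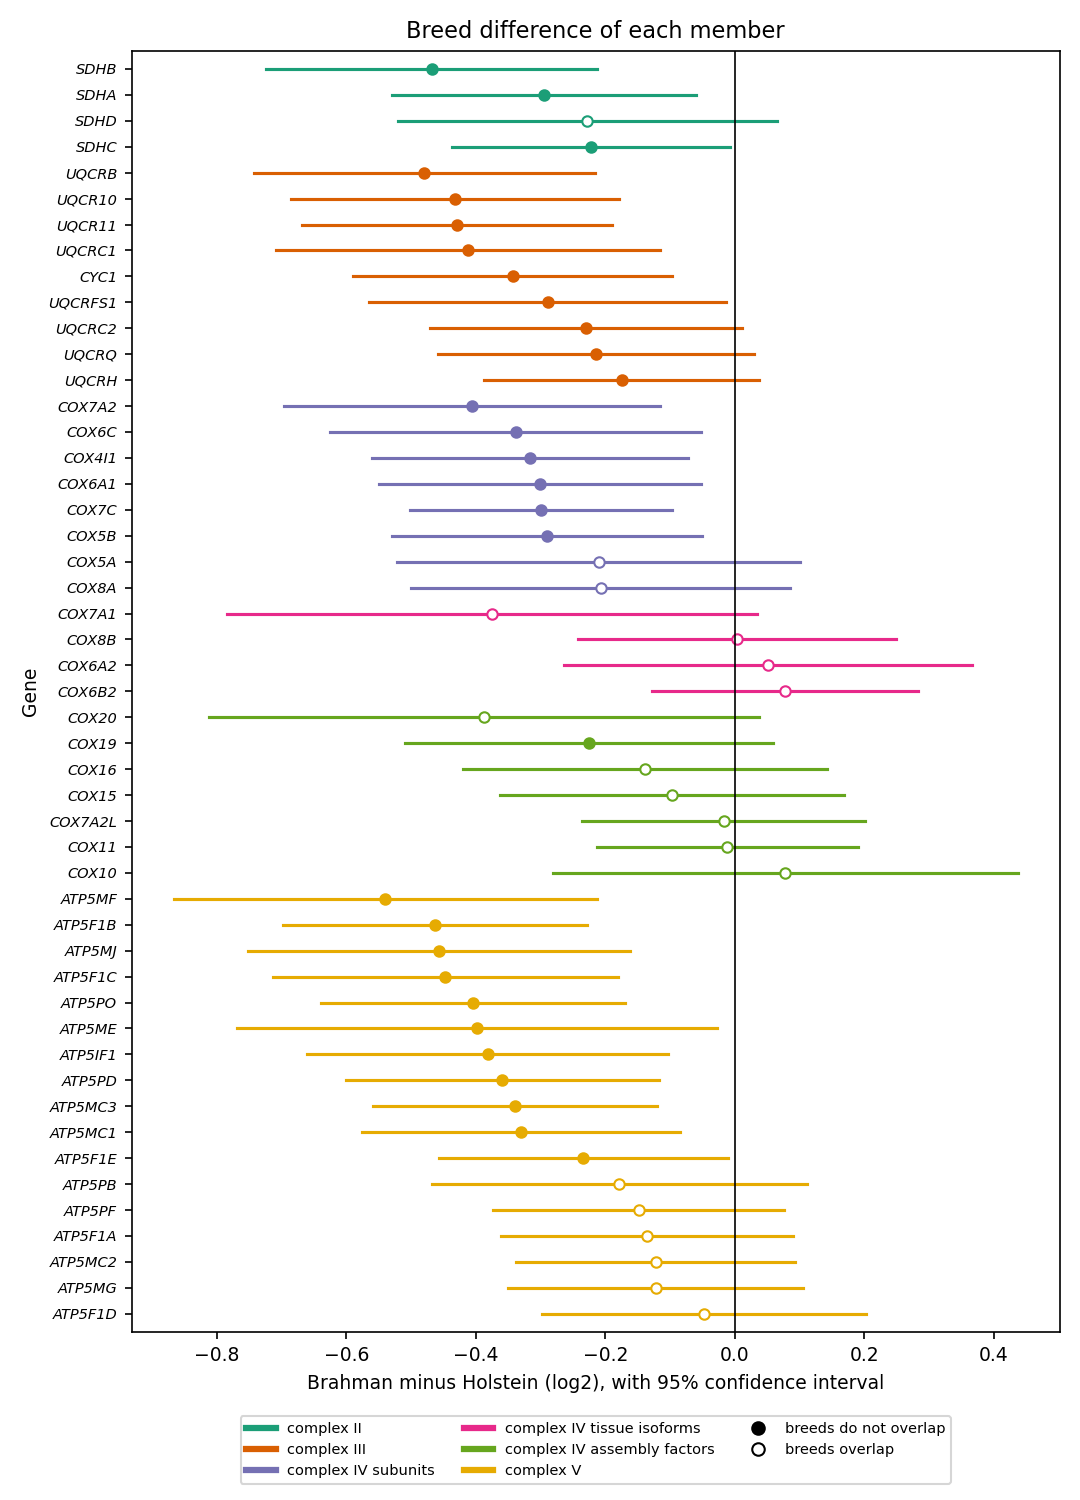
Brahman minus Holstein difference (log2) of each of the 49 members with its 95% confidence interval from limma, coloured by group. Filled points mark the 30 members whose breeds do not overlap, and 26 intervals lie wholly below 0.

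In complex II, all 4 subunits had lower means in Brahman, with a median of -0.26. SDHB, the iron-sulphur subunit, read 11.04, 10.88 and 10.69 on Holstein 1, 2 and 3 and 10.39, 10.43 and 10.38 on Brahman 1, 2 and 3. The Brahman values lay close together and below all Holstein values, and the difference was -0.47 (SE 0.11, limma adjusted p = 0.173). SDHB is 1 of 15 members with an unadjusted p under 0.05 in each of the 6 fits that leave out 1 array.

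SDHA, the flavoprotein that oxidises succinate, read 10.13, 9.92 and 9.97 in Holstein and 9.82, 9.67 and 9.65 in Brahman, without overlap. It differed by -0.29 (SE 0.10, limma unadjusted p = 0.0205). The membrane anchor SDHC read 10.53, 10.55 and 10.67 in Holstein and 10.40, 10.27 and 10.41 in Brahman, a difference of -0.22 (SE 0.09). The breeds were again separate, although the unadjusted p of 0.0447 was held in only 1 of the 6 fits with an array left out. SDHD, the second membrane anchor, overlapped: Holstein 1 read 10.72, below Brahman 1 at 10.82 and Brahman 2 at 10.73, while Holstein 2 and 3 read 11.02 and 11.07 and Brahman 3 read 10.56. Its difference of -0.23 (SE 0.13) had an unadjusted p of 0.109.

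Complex III was the group in which all 9 measured genes separated the breeds on their brightest probe sets, with a median of -0.34. The unadjusted p was under 0.05 for 6 of the 9. Among the named genes, 12.2% were separate with Brahman lower and 9.62% were lower at that p. A dimmer probe set of UQCRC2 separated the breeds in the opposite direction, and those of UQCRB and UQCRC1 overlapped. UQCRB, a small subunit of the ubiquinone-binding side, read 10.61, 10.98 and 10.77 in Holstein and 10.34, 10.29 and 10.30 in Brahman. The 3 Brahman animals were nearly equal (10.31 ± 0.03, SD, n = 3) and the Holstein animals more spread (10.79 ± 0.19, SD, n = 3). The difference was -0.48 (SE 0.11, limma adjusted p = 0.175).

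The small subunits UQCR11 and UQCR10 gave similar differences, -0.43 each (SE 0.10 and 0.11). UQCR11 read 10.75, 10.75 and 10.53 in Holstein and 10.35, 10.18 and 10.21 in Brahman, and UQCR10 read 10.70, 10.69 and 10.49 against 10.29, 10.05 and 10.24. In both genes Holstein 3 was the lowest Holstein array and Brahman 1 the highest Brahman array.

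CYC1, the cytochrome c1 that passes electrons on to cytochrome c, read 10.21, 10.07 and 9.97 in Holstein and 9.86, 9.64 and 9.72 in Brahman. It differed by -0.34 (SE 0.11, limma unadjusted p = 0.0127). The core subunit UQCRC1 read 10.24, 9.87 and 9.85 in Holstein, where the first animal stood above the other two, and 9.67, 9.53 and 9.52 in Brahman, a difference of -0.41 (SE 0.13). UQCRFS1, the Rieske iron-sulphur protein, differed by -0.29 (SE 0.12, unadjusted p = 0.0421). The remaining members of the complex were separate in level but did not reach that p: UQCRC2 at -0.23, UQCRQ at -0.21 and UQCRH, the hinge protein beside cytochrome c1, at -0.17. UQCRH had the largest p of the complex (0.0931), with 12.22, 12.37 and 12.22 in Holstein against 12.16, 12.09 and 12.04 in Brahman.

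The 8 ubiquitous subunits of complex IV had a median difference of -0.30, and 6 of them separated the breeds with an unadjusted p under 0.05. Of the named genes, 12.2% were separate with Brahman lower and 9.62% were lower at that p. These subunits surround the catalytic core, which is mitochondrially encoded. COX7C read 11.42, 11.47 and 11.32 in Holstein and 11.11, 11.13 and 11.08 in Brahman, a difference of -0.30 (SE 0.09, limma adjusted p = 0.234). Variation within each breed was small beside this gap, and COX7C held its unadjusted p in all 6 fits with an array left out.

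COX7A2, the ubiquitous form of subunit VIIa, read 11.29, 11.57 and 11.13 in Holstein and 10.91, 10.90 and 10.96 in Brahman, a difference of -0.41 (SE 0.12). COX4I1, the ubiquitous form of subunit IV, to which ATP binds, read 12.41, 12.19 and 12.23 against 12.03, 11.83 and 12.02, a difference of -0.32 (SE 0.10). Both genes were without overlap, with unadjusted p-values of 0.0127 and 0.0178. COX5B, COX6A1 and COX6C differed by -0.29, -0.30 and -0.34, with unadjusted p-values of 0.0241, 0.0242 and 0.0264. COX5B read 12.16, 12.14 and 11.90 in Holstein and 11.84, 11.74 and 11.75 in Brahman, so that Holstein 3 and Brahman 1 were nearly level.

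Overlap was found for COX8A and COX5A, whose differences of -0.21 each had unadjusted p-values of 0.140 and 0.156. COX5A read 11.43 on Holstein 1 but 11.04 and 11.08 on Holstein 2 and 3, against 11.07, 11.03 and 10.82 in Brahman. In COX8A, Holstein 2 read 11.44, below Brahman 3 at 11.57. NDUFA4, which carries a complex I name but is known as a subunit of complex IV and falls outside the rule, differed by -0.33 (SE 0.09, unadjusted p = 0.00678).

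Several complex IV subunits have isoforms for particular tissues, and these had no common direction in leukocytes. COX7A1, the heart and skeletal muscle form of subunit VIIa, read 7.78, 8.25 and 7.86 in Holstein and 7.89, 7.49 and 7.38 in Brahman, with Brahman 1 inside the Holstein range. Its difference of -0.37 (SE 0.17, unadjusted p = 0.0674) was near that of the ubiquitous COX7A2, with a 95% confidence interval from -0.78 to 0.03. The muscle form COX6A2 differed by 0.05 (SE 0.13), against -0.30 for the ubiquitous COX6A1. COX8B, the muscle form of subunit VIII, read 10.08, 9.94 and 9.84 in Holstein and 10.01, 10.03 and 9.83 in Brahman. The COX8B values of the breeds interleave, with a difference of 0.00 and an interval from -0.24 to 0.25. For COX6B2, a testis form, the difference was 0.08 (SE 0.09). COX6A2 and COX6B2 averaged 5.98 and 5.68, below the median of all probe sets (6.59), and without detection calls they are not shown to be above background. The difference between an isoform and its ubiquitous partner was not tested.

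The 7 genes for complex IV assembly or supercomplex factors had a median difference of -0.10, with 6 means lower and 1 higher in Brahman and 0 at an unadjusted p under 0.05. For so few genes, 0 is near the 9.62% of the named genes that were lower at that p. COX20, a chaperone of the subunit COX2, read 5.96, 6.68 and 6.37 in Holstein and 6.09, 5.82 and 5.93 in Brahman. Holstein 1 lay below Brahman 1, and the difference of -0.39 (SE 0.18, unadjusted p = 0.0685) had the smallest p of these genes. COX19, a copper-handling protein of the intermembrane space, differed by -0.23 (SE 0.12) on its brightest probe set. COX16, a COX2 maturation factor, differed by -0.14 and COX15, which makes haem A, by -0.10. COX20 and COX15 averaged 6.14 and 6.16, below the median of all probe sets (6.59), and are likewise not shown to be above background. COX7A2L, known for joining complexes III and IV, differed by -0.02 (SE 0.09). COX11, needed to insert copper into COX1, read 8.16, 8.28 and 8.21 in Holstein and 8.27, 8.17 and 8.17 in Brahman. The COX11 values of the breeds interleave, and the interval of its difference ran from -0.21 to 0.19. COX10, which acts before COX15 in haem A synthesis, was the assembly gene with a higher mean in Brahman (0.08, SE 0.15), where Brahman 1 read 8.23 and every other array 7.97 or less. It was chosen for mention after its values were seen.

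Whether subunits and assembly factors of complex IV shifted differently was looked at within arrays. The mean of the 8 subunits minus the mean of the 7 assembly factors was 3.93, 3.70 and 3.57 on Holstein 1, 2 and 3 and 3.48, 3.59 and 3.59 on Brahman 1, 2 and 3. Holstein 3 lies below Brahman 2 and 3, so this contrast overlaps between the breeds, unlike the level of the subunits themselves.

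In complex V, all 17 measured genes had lower means in Brahman, with a median of -0.34. Of these, 11 reached an unadjusted p under 0.05, beside 9.62% of the named genes lower at that p. The same number separated the breeds, beside 12.2% of the named genes with Brahman lower. In the F1 head, ATP5F1B, the catalytic beta subunit, had the smallest p of all 49 members. It read 11.75, 11.59 and 11.61 in Holstein and 11.27, 11.05 and 11.25 in Brahman, without overlap and 1.38-fold higher in Holstein. The difference was -0.46 (SE 0.10, limma adjusted p = 0.151) and ran from -0.50 to -0.39 as single arrays were left out.

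The gamma subunit ATP5F1C, the rotating shaft inside the head, read 11.65, 11.84 and 11.47 in Holstein and 11.19, 11.26 and 11.16 in Brahman, a difference of -0.45 (SE 0.11). ATP5F1E, the epsilon subunit at the foot of the shaft, differed by -0.23 (SE 0.10, unadjusted p = 0.0418). The other F1 subunits did not separate the breeds. ATP5F1A, the alpha subunit that alternates with beta around the head, read 12.30, 12.56 and 12.45 in Holstein and 12.33, 12.28 and 12.29 in Brahman, a difference of -0.14 (SE 0.10). ATP5F1D, the delta subunit of the shaft, had the largest p of the complex (0.673), with 10.89, 10.58 and 10.74 against 10.78, 10.65 and 10.64. Genes whose products sit side by side in 1 head thus gave differences from -0.46 to -0.05, and the difference between them was not tested.

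The c ring is made from 3 genes, ATP5MC1, ATP5MC2 and ATP5MC3, which are known to encode the same mature protein behind different import sequences. ATP5MC3 read 11.98, 11.81 and 11.88 in Holstein and 11.63, 11.55 and 11.47 in Brahman, a difference of -0.34 (SE 0.09, unadjusted p = 0.00765). ATP5MC1 read 9.36, 9.15 and 9.10 against 8.97, 8.80 and 8.84, a difference of -0.33 (SE 0.11, unadjusted p = 0.0153). Both separated the breeds. ATP5MC2 read 12.10, 11.99 and 12.18 against 12.02, 11.97 and 11.91, with Holstein 2 below Brahman 1. Its difference was -0.12, with a 95% interval from -0.34 to 0.09. That interval overlaps those of ATP5MC1 (-0.58 to -0.08) and ATP5MC3 (-0.56 to -0.12), and the difference between these genes was not tested.

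The peripheral stalk holds the head still against the turning ring. ATP5PO, which joins the stalk to the head, read 11.29, 11.46 and 11.23 in Holstein and 11.02, 10.91 and 10.84 in Brahman, a difference of -0.40 (SE 0.10). The stalk subunit ATP5PD differed by -0.36 (SE 0.10), and ATP5PB and ATP5PF by -0.18 and -0.15 with overlap. Among the small membrane subunits, ATP5MF had the largest difference of all members, -0.54 (SE 0.14, limma adjusted p = 0.201). It read 11.08, 11.33 and 10.88 in Holstein and 10.67, 10.62 and 10.39 in Brahman, and the lowest Holstein value stood 0.21 above the highest Brahman value. ATP5MJ differed by -0.46, ATP5ME by -0.40 and ATP5MG by -0.12, and ATP5MG was the one of these that overlapped.

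ATP5IF1 encodes the inhibitor that stops complex V from running backwards and consuming ATP. It read 11.51, 11.76 and 11.42 in Holstein and 11.28, 11.21 and 11.06 in Brahman, without overlap. The difference of -0.38 (SE 0.12, unadjusted p = 0.0140) was of the size of those of the synthase subunits, and it lost the unadjusted p in 1 of the 6 fits with an array left out.

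**Figure D3:**
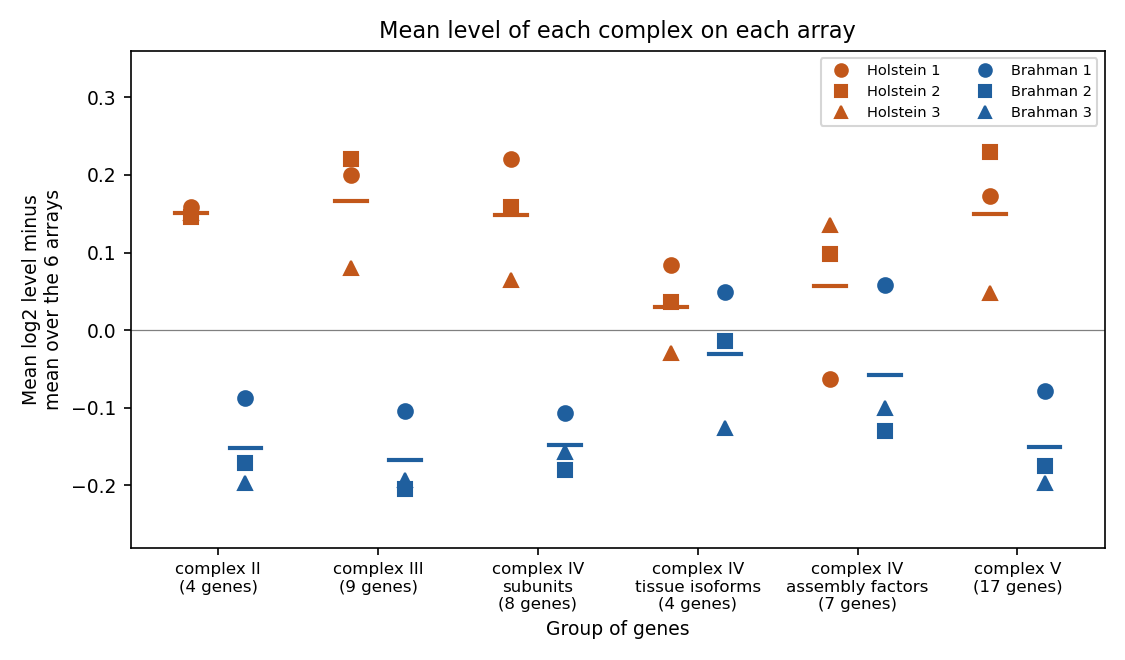
Mean log2 level of each group of genes on each array minus its mean over the 6 arrays; symbols are arrays and horizontal bars the means of 3 arrays per breed. Complexes II, III and V and the complex IV subunits separate the breeds, while the tissue isoforms and assembly factors overlap.

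By array, the mean of the 49 members was 10.40, 10.44 and 10.33 on Holstein 1, 2 and 3 and 10.20, 10.10 and 10.09 on Brahman 1, 2 and 3. Holstein 2 held the highest value of 21 members, Holstein 1 of 19 and Holstein 3 of 6. Brahman 3 held the lowest value of 22 members, Brahman 2 of 20 and Brahman 1 of 2. Across the breeds, Holstein 3 and Brahman 1 were thus the nearest pair. The mean of complex II in Holstein was 10.60 ± 0.01 (SD, n = 3), although SDHB was highest on Holstein 1 and SDHD lowest there, and that of complex V was 11.38 ± 0.09 (SD, n = 3). With any 1 array left out, 37 of the 38 subunits kept a lower mean in Brahman in all 6 fits, and the exception, ATP5F1D, was 0.03 higher without Holstein 1.

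**Figure D4:**
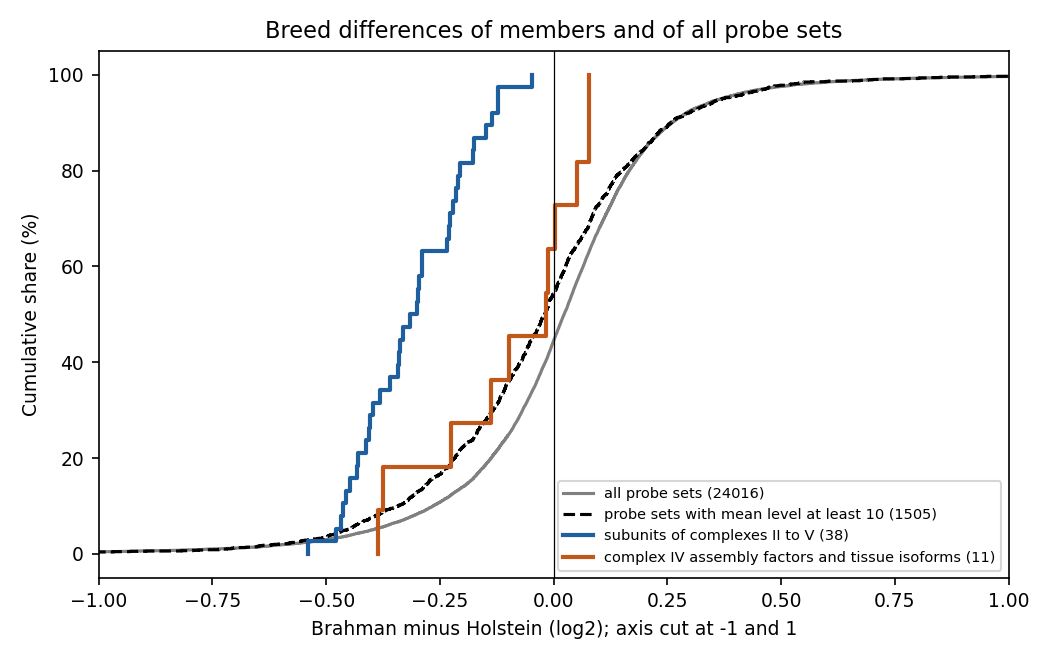
Cumulative share (%) of Brahman minus Holstein differences (log2, axis limited to -1 to 1) for all 24016 probe sets, the 1505 with a mean level of at least 10, the 38 subunits and the 11 assembly factors and tissue isoforms. The subunits lie wholly below 0, with a median of -0.31 beside 0.02 for all probe sets.

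For 12 members the array holds more than 1 probe set, and the dimmer ones did not always follow the brightest. UQCRC2, a core subunit of complex III, had probe sets that separated the breeds in opposite directions. The brighter one read 10.25, 10.48 and 10.21 in Holstein and 10.02, 10.11 and 10.13 in Brahman (difference -0.23, SE 0.10). The dimmer one read 7.22, 7.43 and 7.29 in Holstein and 7.51, 7.45 and 7.69 in Brahman (difference 0.23, SE 0.11). The array therefore gives no single direction for UQCRC2, and which probe set measures the gene was not tested. COX19 behaved in a like way: its brighter probe sets differed by -0.23 and -0.21, and the dimmest (mean 7.22) was higher in Brahman by 0.28 (SE 0.11, unadjusted p = 0.0371).

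The second probe sets of ATP5F1B, UQCRC1 and UQCRB differed by 0.02, 0.03 and 0.10, against -0.46, -0.41 and -0.48 for the brightest. The mean levels of these second probe sets were 6.15, 5.84 and 7.70. For ATP5F1A the second probe set averaged 5.48 and differed by 0.13, and for COX8B it differed by -0.04, so the signs differ within 7 genes in all. Without detection calls these dim probe sets are not shown to be above background. ATP5F1D went the other way, with its second probe set at -0.38 (SE 0.17, with overlap) against -0.05 for the brightest. The second probe set of COX6C (-0.31) was close to the brightest, and that of COX6A1 (-0.05, SE 0.20) varied more widely, with an SD of 0.44 among the Brahman animals.

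**Figure D5:**
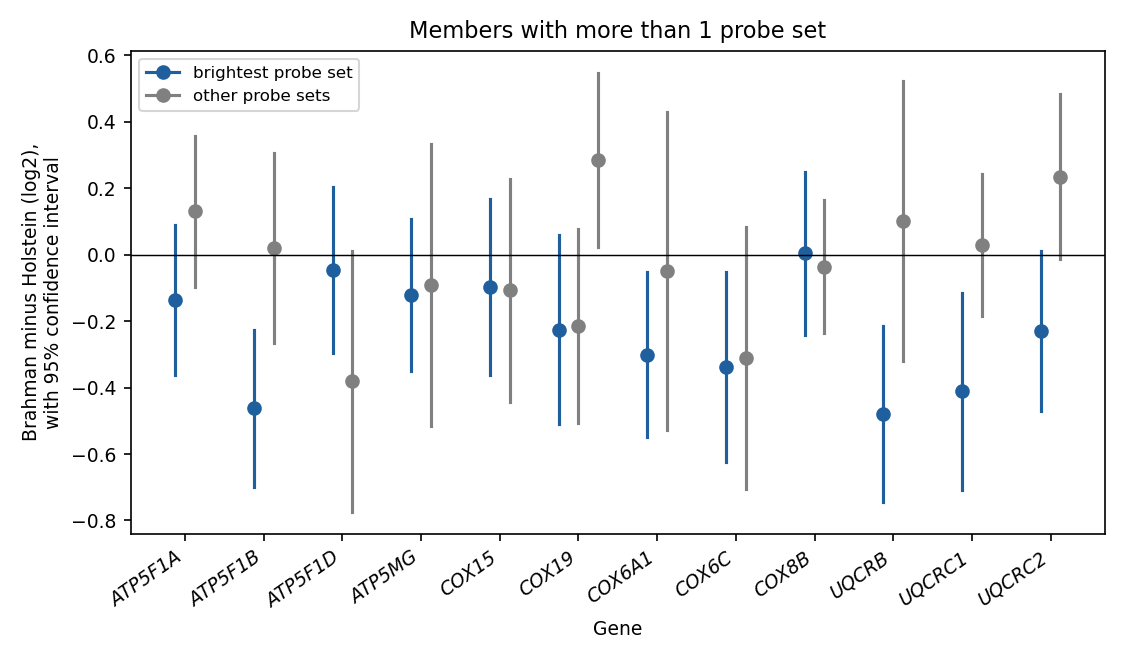
Brahman minus Holstein difference (log2, with 95% confidence interval) of every probe set of the 12 members with more than 1, from brightest to dimmest within each gene. The brightest probe sets of UQCRB, UQCRC1 and ATP5F1B lie below 0 and their dimmer ones near 0, while UQCRC2 has estimates on both sides.

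Other mitochondrial genes of nuclear origin lay on the same side. Of the named genes, 51.7% had lower means in Brahman and 9.62% were lower at an unadjusted p under 0.05. All 37 measured genes with names of complex I subunits, NDUFA4 among them, had lower means in Brahman, with a median of -0.36, and for 26 of them the unadjusted p was under 0.05. NDUFC2 (-0.57, SE 0.10) and NDUFC1 (-0.61, SE 0.11) had the smallest p-values of these, and 0 passed the adjusted threshold. Of 67 mitochondrial ribosomal protein genes 60 had lower means (median -0.24), and the unadjusted p was under 0.05 for 29 lower genes and 1 higher gene. MRPL11 differed by -0.64 (SE 0.08, limma adjusted p = 0.0579) and MRPS26 by -0.63 (SE 0.13). The median of complexes II to V therefore lies between those of these groups, and whether they differ was not tested.

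Assembly factors of complexes II to V outside the rule were measured for 19 of 34 listed genes, and 17 had lower means (median -0.17). Of these 17, 5 reached an unadjusted p under 0.05, which is 26.3% of the 19 beside 9.62% of the named genes. CMC2, a small protein needed for complex IV, read 10.25, 10.34 and 10.24 in Holstein and 9.85, 9.76 and 9.80 in Brahman, a difference of -0.47 (SE 0.08, limma adjusted p = 0.111). COA4, a complex IV assembly factor, differed by -0.66 (SE 0.15). Among 10 measured regulators of mitochondrial biogenesis, 7 had lower means, beside 51.7% of the named genes, with a median of -0.06. Only TFB1M was lower at an unadjusted p under 0.05 (-0.65, SE 0.20). This is 10% of the regulators, near the 9.62% of the named genes. TFB1M methylates the mitochondrial ribosomal RNA. The mitochondrial RNA polymerase POLRMT differed by -0.25 (SE 0.14) with overlap, and PPARGC1A and NRF1 by -0.01 and 0.09, these last chosen after their values were seen.

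Leukocyte markers were high on every array: the common leukocyte phosphatase PTPRC averaged 12.66 in Holstein and 12.74 in Brahman. Of all probe sets, 44.5% had a lower mean in Brahman, and 7.12% were higher and 6.47% lower at an unadjusted p under 0.05. Of 18 measured T cell markers 16 had higher means in Brahman, and 13 of these had an unadjusted p under 0.05, such as CD40LG (0.74) and LEF1 (0.96). Their mean level was 9.14 to 9.29 on the Holstein and 9.49 to 9.67 on the Brahman arrays, so T cell markers separated the breeds as the respiratory subunits did, in the opposite direction. Mean levels of 5 B cell markers also separated the breeds narrowly (9.91 to 10.05 in Holstein, 10.08 to 10.22 in Brahman), but only BLK (0.97) and CR2 (0.35) were higher in Brahman, while CD79A (-0.23), MS4A1 (-0.14) and BLNK (-0.11) were lower. Those of 9 monocyte (7.87 to 8.10, 7.73 to 7.96), 13 neutrophil (8.78 to 9.01, 8.81 to 8.996), 12 NK and cytotoxic (7.89 to 8.21, 8.13 to 8.62) and 4 eosinophil and basophil markers (6.72 to 7.22, 6.75 to 7.12) overlapped, Holstein first. Each of these lists held markers of both directions. Of the monocyte markers 5 had lower means (CD14 -0.94, CD86 -0.66) and 4 higher (VCAN 0.92), and of the neutrophil markers 9 were lower (S100A12 -0.41) and 4 higher (ALPL 1.42). At an unadjusted p under 0.05, 3 monocyte markers were lower (33.3%, beside 9.62% of the named genes) and 1 higher. At that p, 0 neutrophil markers were lower and 1 higher. Of the NK and cytotoxic markers 8 had higher means (GZMB 2.51, KLRD1 0.90) and 4 lower (PRF1 -0.60, FCGR3A -0.78), with 2 in each direction at an unadjusted p under 0.05. Only GZMB among them passed the adjusted threshold (limma adjusted p = 0.0264), as did 0.137% of all probe sets. FCER1A differed by 0.29 and HDC by -0.03. The 8 erythroid (5.66 to 5.93, 5.75 to 5.85) and 5 platelet markers (7.56 to 7.90, 7.52 to 7.89) overlapped too, with ALAS2 (-0.56) and HBA (-0.14) lower and the other 6 erythroid markers higher (HBB 0.12), and with PF4 at -0.60 and ITGA2B at 0.10. Those of 7 general leukocyte markers (12.50 to 12.70, 12.49 to 12.58) also overlapped. Of these markers 4 had lower means (ITGB2 -0.35, CD53 -0.19) and 3 higher (PTPRC 0.09). No marker has a value of 0 on this scale, and the part of cell makeup in the respiratory differences was not tested.

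The spike-in control transcripts averaged 9.94, 10.38 and 10.10 on Holstein 1, 2 and 3 and 9.64, 9.71 and 9.80 on Brahman 1, 2 and 3. They separated the breeds in the direction of the respiratory genes (10.14 ± 0.22 in Holstein, 9.72 ± 0.08 in Brahman, SD, n = 3), and the 3′ to 5′ difference of actin did so as well (1.73 to 1.98 in Holstein, 1.64 to 1.72 in Brahman), whereas that of GAPDH overlapped (-0.12 to 0.24 in Holstein, -0.13 to -0.08 in Brahman). Because the spike-in mean differs with breed, a fit that holds both cannot tell them apart well. Its standard errors were larger, such as 0.20 against 0.11 for SDHB. With this spike-in mean added to the fit, 34 of the 38 subunits had lower values in Brahman and 12 had an unadjusted p under 0.05. The exceptions were ATP5PB (0.16), ATP5F1A (0.06), COX6C (0.02) and UQCRC2 (0.01). The 12 include SDHB (-0.56, SE 0.20), UQCRC1 (-0.72, SE 0.19), COX4I1 (-0.48, SE 0.18), ATP5F1B (-0.58, SE 0.18) and ATP5MC3 (-0.53, SE 0.15). They also include COX5A (-0.59, SE 0.18) and COX8A (-0.50, SE 0.19), which had not reached that p without the covariate, so the 12 are not all among the earlier 26. UQCRB, COX7A2 and ATP5MF, at -0.18, -0.11 and -0.36, had unadjusted p-values of 0.305, 0.598 and 0.205 in that fit.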

How the data were processed

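The authors deposited log2 expression values of Affymetrix bovine arrays, 1 array per animal. Per the submitters' processing notes these are RMA values (version not given in the sources used here), which are background-corrected, normalised across arrays and combined over the probes of each set, so a change in total RNA would be removed. Scanner intensities and detection calls were not used here. The table has 24128 probe sets, of which 112 controls were left out. The annotation gave 13292 probe sets 1 symbol, 86 several and 10638 none, and 13263 matched the RefSeq gene table of ARS-UCD2.0 by Entrez identifier. Coordinates are left out because the sources name no build for the array.

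Breeds were compared with limma 3.58.1 (lmFit, eBayes) in R 4.3.3 with breed as the only term, two-sided, with Benjamini-Hochberg adjustment over 24016 probe sets. Replicates are different animals, and 3 arrays per breed limit precision. The fit was tested on simulated data. Members, roles and gene lists were chosen with earlier results of these data known, so lists are given as counts and medians without a test. Named are complex II, CYC1, ATP5IF1, the 4 smallest and the largest p of each other group, isoform families, members whose probe sets differ in sign and the 2 smallest p of each list; further members are given briefly. Alternatives were other normalisations, filters on low levels, a trended robust prior, weights for arrays, a replicate block, a spike-in covariate, other probe set choices and leaving out each array. The comparison with probe sets of a mean level of at least 10 was chosen after seeing the data.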

Additional observations from a re-analysis of the deposited data

How the results depend on the processing

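The count of members past the adjusted threshold was 0 in limma under every setting tried, with 12 to 27 lower members at an unadjusted p under 0.05 and a median difference below 0. Leaving out single arrays, the count of 26 ran from 17 to 26 (17 without Brahman 2 or Brahman 3) and the complex II median from -0.317 to -0.247. With the spike-in covariate the count was 12, and the medians of complexes II, III and IV subunits were -0.363, -0.414 and -0.386. The median over all members shrank from -0.290 to -0.243, and that of complex V shrank too. That of the assembly factors turned to 0.0232. In that fit ATP5F1A (0.0589), COX11 (0.0596), COX15 (0.0472), COX16 (0.0232), COX20 (0.161), UQCRC2 (0.0147), ATP5PB (0.159), COX6C (0.0214), COX6A2 (-0.288), COX10 (-0.242), COX8B (-0.144) and COX6B2 (-0.0162) changed sign. Cyclic loess gave a complex II median of -0.221 and left 44 members lower, beside 45 in the main fit. The signs it turned include those of COX11 (0.0101) and COX6A2 (-0.00398), and not all are listed here. Equal array medians turned COX8B (-0.0248). Averaging a gene's probe sets gave a median of -0.222 over members and -0.214 for complex III, with UQCRC2 at 0.00258 and COX8B at -0.0162. Taking the probe set of smallest residual variance turned COX19 (0.285), UQCRC1 (0.0295) and COX8B (-0.0361). Single arrays left out also moved ATP5F1D between -0.124 and 0.0274, COX11 between -0.0443 and 0.0185, COX6A2 between -0.0451 and 0.189 and COX8B between -0.0530 and 0.0683, so that their signs turned. The signs of COX10 (-0.0754 to 0.198) and COX7A2L (-0.0506 to 0.0469) turned likewise. The causes of these changes were not tested. With a replicate block, 22 members had an unadjusted p under 0.05. Correlations of same-numbered arrays were 0.111, -0.0425 and -0.0737, of mixed sign. With 3 arrays per breed they cannot settle whether the numbers pair the animals. Calls over all probe sets ran from 0 with the spike-in covariate to 55 without Holstein 3, against 33 in the main fit. They were 5 without Brahman 2, 8 without Holstein 2 and 10 with the replicate block. With the spike-in covariate, 4.42% of all probe sets were lower at an unadjusted p under 0.05. Without detection calls, the distance of dim probe sets from background is unknown.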
